A study of Mus musculus with 4 samples.

Results

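Matrix proteases and their inhibitors are described here by 9 genes chosen by name: the matrix metalloproteases Mmp2, Mmp9, Mmp11 and Mmp14, the tissue inhibitors of metalloproteases Timp1, Timp2 and Timp3, and the plasminogen activators Plat and Plau. Their 10 transcript rows, of 35656 in each table, were found by transcript ID, and FPKM (fragments mapped to a transcript, scaled by its length and by the size of the library) was summed per gene, which left 9 of the 27408 genes and unnamed transcripts. All 9 had a mean of at least 1 FPKM over the 4 libraries and were among the 11736 genes tested. The libraries came from CJ9 mouse embryonic stem cells of strain 129S4/SvJae, given as WT and, in their titles, as Cas9 only, after the cytokine LIF was taken away, which lets the cells leave the stem cell state. By their titles 2 libraries are from day 4 and 2 from day 6. For day 4 replicates 1 and 2 and day 6 replicate 1 the culture text in the labels gives another number of days than the title, while the harvest text matches the title in every library. No label ties the libraries of a day to separate cultures, so every p-value measures only how far apart these libraries lie, and that spread may be technical. Cells with the Evx1as/Evx1 locus deleted, which the series is about, and cells before LIF withdrawal were not analysed here, so the 1 comparison is day 6 against day 4.

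Matrix metalloproteases are zinc enzymes that cut collagens, laminins, fibronectin and many cell surface proteins. They are made as inactive precursors, and the TIMP proteins bind their active site. Mmp14 sits in the cell membrane, where a complex of Mmp14 and Timp2 brings the secreted precursor of Mmp2 to a free Mmp14 that cuts it to its active form. The serine proteases encoded by Plat (tissue plasminogen activator) and Plau (urokinase) turn plasminogen into plasmin, which digests fibrin and matrix and can activate some metalloprotease precursors. In the embryo these genes are known from cells that cross or build basement membranes, such as parietal endoderm, trophoblast and mesenchyme, and Plat is a classical product of parietal endoderm cells in culture.

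Upstream sequences of members are shown as a description, and control shared by these genes was not tested. RefSeq promoter sequences (build GRCm38.p6, which mm10 stands for) matched 5 of the 9 members by symbol: Mmp11, Mmp14, Timp1, Timp2 and Timp3. Those of the highest metalloprotease, of the metalloprotease whose day 4 and day 6 values lay farthest apart, and of the inhibitor with the largest difference are printed, as the 250 bases before the RefSeq table's start of transcription, 5′ to 3′ on the strand of the gene. They lie at chr14:54431348-54431597 (plus strand) for Mmp14, chr10:75932503-75932752 (minus strand) for Mmp11 and chrX:20869916-20870165 (plus strand) for Timp1. Capitals mark matches, on either strand, to a GC box, spelled GGGCGG, or to a second motif named after its own letters, the CCAAT box. For Mmp14 and Mmp11 that start differs from the start of the measured transcript rows given with their values. In the Mmp14 window 1 match to the second motif, read on the opposite strand, shares a base with a GC box.
Mmp14: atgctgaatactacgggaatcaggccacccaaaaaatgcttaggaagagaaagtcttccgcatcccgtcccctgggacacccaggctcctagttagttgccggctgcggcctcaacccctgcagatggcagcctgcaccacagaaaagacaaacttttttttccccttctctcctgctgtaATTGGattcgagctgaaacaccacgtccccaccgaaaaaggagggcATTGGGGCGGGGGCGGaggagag
Mmp11: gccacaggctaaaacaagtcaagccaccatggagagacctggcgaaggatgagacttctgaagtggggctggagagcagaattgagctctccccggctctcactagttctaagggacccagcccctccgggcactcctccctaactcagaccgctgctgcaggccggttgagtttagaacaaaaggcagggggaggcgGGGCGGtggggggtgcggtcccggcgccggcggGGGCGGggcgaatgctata
Timp1: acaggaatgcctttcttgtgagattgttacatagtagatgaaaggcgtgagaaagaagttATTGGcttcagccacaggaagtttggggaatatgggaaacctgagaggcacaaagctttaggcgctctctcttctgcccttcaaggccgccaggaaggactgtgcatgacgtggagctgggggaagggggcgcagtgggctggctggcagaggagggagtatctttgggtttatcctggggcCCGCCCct
A GC box was found in the windows of 5 of the 5 members, against 32.7% of 32851 promoter windows of the same length. A CCAAT box was found in 3 of the 5 (33.8% of all windows). The AP-1 motif TGANTCA, where N is any base, and the letters TATAAA were found in 0 of the 5, against 6.75% and 12.4% of all windows. The share of G and C was 63.2% for Mmp11, 55.2% for Mmp14, 54.4% for Timp1, 68% for Timp2 and 65.6% for Timp3, with a median of 52.4% over all windows. CG dinucleotides numbered 21 in the Timp2 window, 18 in that of Timp3, 14 in that of Mmp11, 10 in that of Mmp14 and 6 in that of Timp1, where the median window held 6. By letters, the Timp1 window was thus poorer in CG than those of the other inhibitors. These matches describe letters and show no binding.

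Of the 9 members, 8 had their lower day 6 value above their higher day 4 value, which is called here higher without overlap, and Mmp9 was the exception. The background was 41.5% of the 11736 genes higher and 11.5% lower without overlap. None of the 9 passed the test over all genes (limma on log2(FPKM + 1), adjusted p from 0.265 to 0.672), as no gene did (0 of 11736, 0% called). At an unadjusted limma p under 0.05 there were 1806 genes, 15.4% of those tested, and 5 members: Plat, Mmp11, Mmp2, Timp2 and Timp1. The median log2 difference of day 6 minus day 4 was 1.79 over the members and 0.51 over all genes. When each library was centred on its median, 20.3% of all genes were higher and 26.4% lower without overlap, and 6 members were higher, with Mmp14 and Timp3 overlapping and Mmp9 lower. That scaling moved the median of all genes to -0.12. Quantile normalization left 8 members higher, beside 23.1% of all genes, and Mmp9 lower, beside 25% of all genes. The calls depended on the day 4 libraries. Without day 4 replicate 1 all 9 members passed, Timp1 and Plau against a listed 0, beside 66.8% of all genes, and without day 4 replicate 2 the members Mmp2, Mmp11, Mmp14, Timp1, Timp2 and Plat passed, beside 51.7% of all genes. Such a fit takes the spread of the lone day 4 library to be that of day 6. Without either day 6 library 0 members passed (limma, adjusted p of at least 0.9997). In bulk RNA a larger number of cells of a type and more RNA per cell cannot be told apart.

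**Figure D1:**
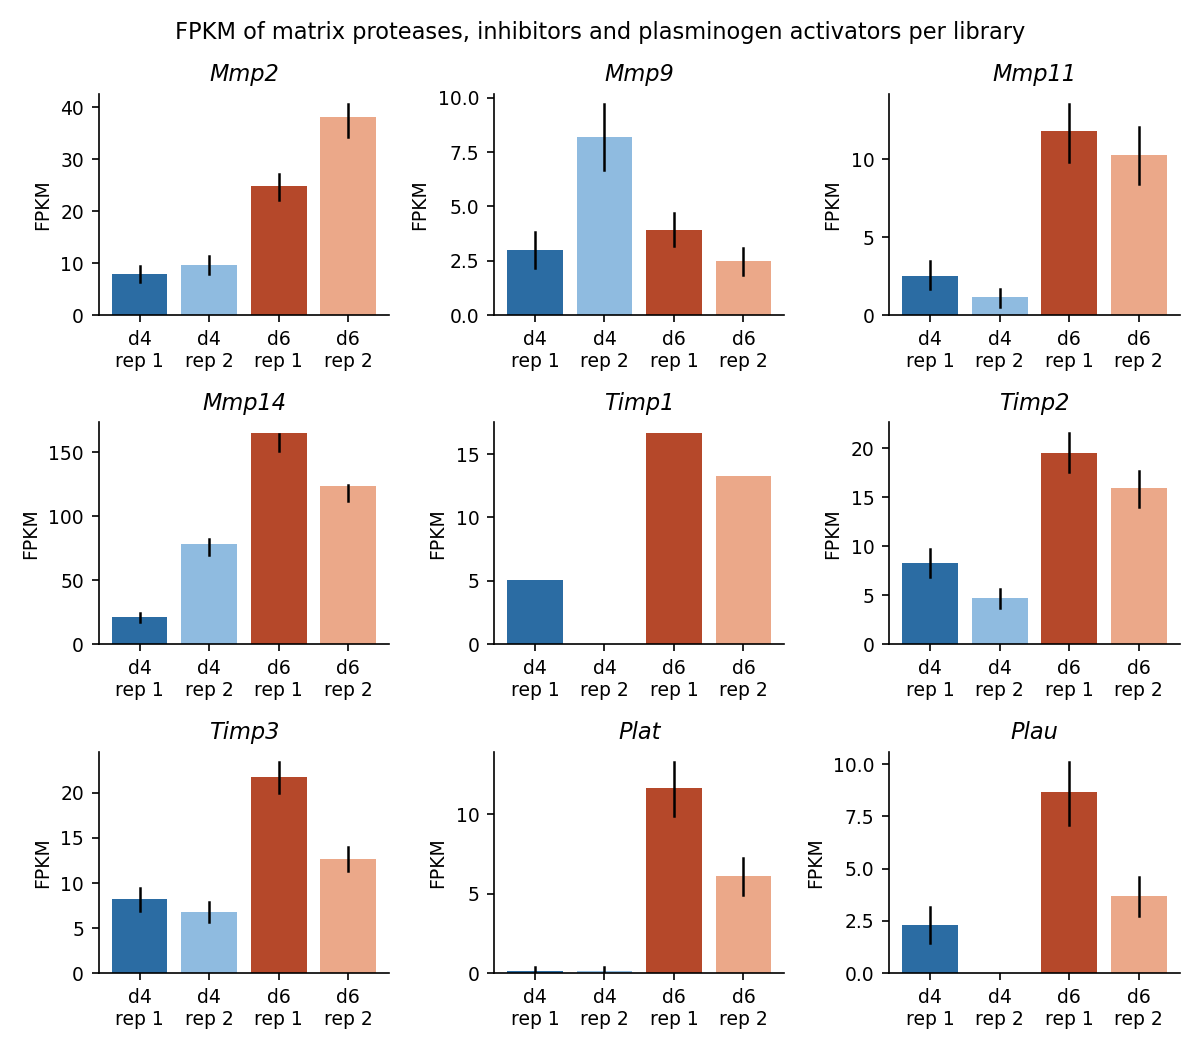
FPKM of the 9 members in day 4 replicates 1 and 2 and day 6 replicates 1 and 2 (bars), with the deposited lower and upper bound where a gene has 1 transcript row (vertical lines). Both day 6 bars stand above both day 4 bars in 8 panels, from 11.7 and 6.11 against 0.165 and 0.167 FPKM for Plat to 21.8 and 12.7 against 8.21 and 6.78 FPKM for Timp3, and Mmp9 is highest in day 4 replicate 2.

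**Figure D2:**
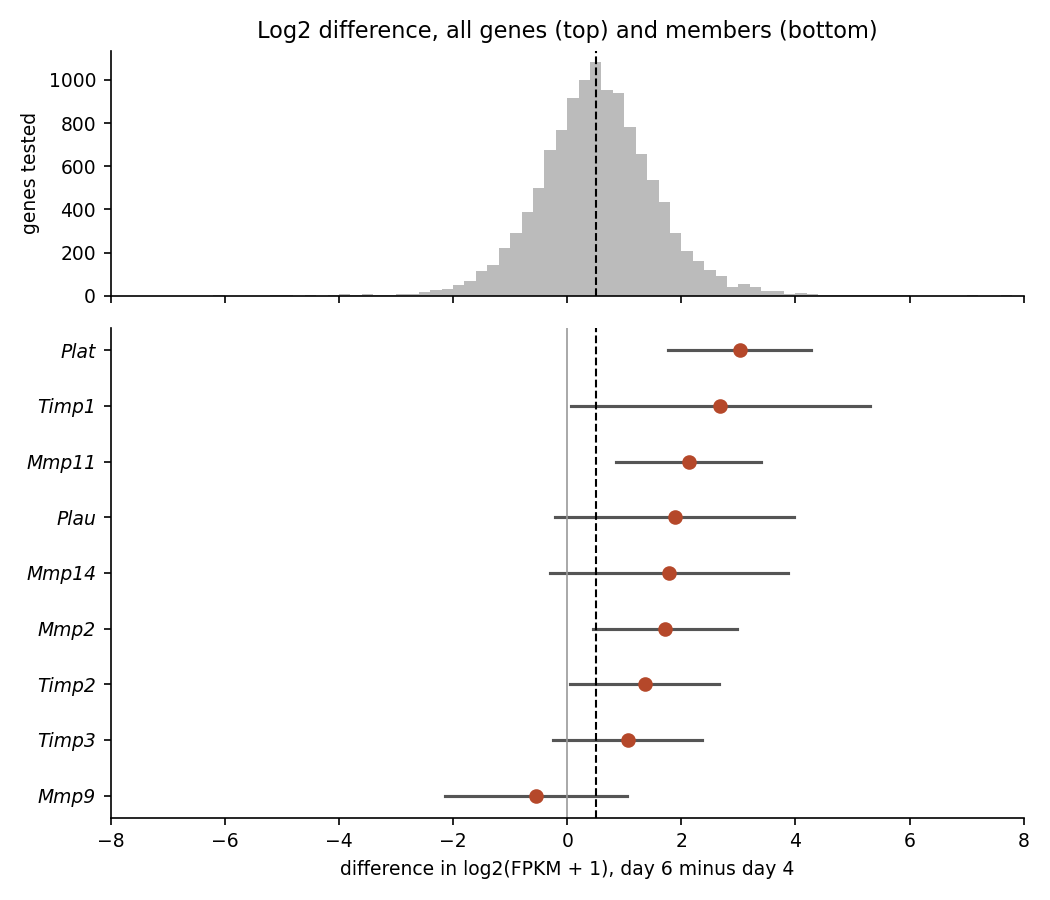
Difference of log2(FPKM + 1), day 6 minus day 4, for the 11736 genes tested (upper panel, number of genes per bin of log2 difference) and for the 9 members (lower panel, points with 95% intervals from limma). The dashed line is the median of all genes, 0.51, and the members run from -0.55 for Mmp9 to 3.02 for Plat.

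Mmp14, the membrane-bound enzyme that activates Mmp2, had the highest FPKM of the members in every library. Its transcript (NM_008608, plus strand, mm10 chromosome 14, 54431604 to 54441258) read 20.9 and 78.5 FPKM in day 4 replicates 1 and 2 and 165 and 124 FPKM in day 6 replicates 1 and 2. It was therefore low in 1 day 4 library, intermediate in the other and high in both day 6 libraries. The day 6 libraries ranked it above 96.4% and 95.2% of the genes tested, and the day 4 libraries above 75.3% and 92.5%. There was a mean of 49.7 ± 40.7 FPKM on day 4 and of 144 ± 29.4 FPKM on day 6 (n = 2, SD), 2.90-fold higher. On the log2(FPKM + 1) scale the difference was 1.79 with a standard error of 0.78 (limma, adjusted p = 0.367). Leaving out day 4 replicate 1 gave 0.86, and leaving out replicate 2 gave 2.72. Centring on the median gave 1.16, with overlap between the days. The deposited value of day 6 replicate 1 lies slightly above its own upper bound of 164 FPKM, so the bounds of this row are not a simple interval around the value.

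Mmp2, gelatinase A, which cuts type IV collagen and denatured collagen, had the second highest FPKM among the metalloproteases at both days by its mean. Its transcript (NM_008610, plus strand, chromosome 8, 92827328 to 92853420) read 7.86 and 9.61 FPKM on day 4, then 24.8 and 38.2 FPKM on day 6. The libraries of a day lay closer together than the days. The mean of 8.74 ± 1.24 FPKM on day 4 and of 31.5 ± 9.45 FPKM on day 6 (n = 2, SD) gave a ratio of 3.60. The log2 difference was 1.71 with a standard error of 0.47 (limma, adjusted p = 0.284). Leaving out day 4 replicate 1 gave 1.58, and leaving out replicate 2 gave 1.84. Centring on the median gave 1.08. The gap between the days exceeds the counting error that the deposited bounds cover, since the lowest deposited bound at day 6, 22.1 FPKM, is 1.95 times the highest bound at day 4, 11.4 FPKM.

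Mmp11, stromelysin 3, is cut to its active form inside the cell and is known from tissues that are being remodelled. It read 2.53 and 1.14 FPKM on day 4, then 11.8 and 10.2 FPKM on day 6 (NM_008606, minus strand, chromosome 10, 75923224 to 75932463). The lower day 6 value was 4.06 times the higher day 4 value, and the day 6 libraries were close to each other. The mean of 1.83 ± 0.981 FPKM on day 4 and of 11.02 ± 1.10 FPKM on day 6 (n = 2, SD) gave a ratio of 6.02. The log2 difference was 2.13 with a standard error of 0.47 (limma, adjusted p = 0.265), larger than that of 94.3% of the genes tested. Leaving out day 4 replicate 1 gave 2.49, and leaving out replicate 2 gave 1.77.

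Mmp9, gelatinase B, shares the gelatin-cutting activity of Mmp2 and did not share its order. Its transcript (NM_013599, plus strand, chromosome 2, 164948219 to 164955849) read 2.98 and 8.20 FPKM on day 4, then 3.94 and 2.48 FPKM on day 6. The high value was that of day 4 replicate 2, and the other 3 libraries lay within 2.48 to 3.94 FPKM. There was a mean of 5.59 ± 3.69 FPKM on day 4 and of 3.21 ± 1.03 FPKM on day 6 (n = 2, SD), with a log2 difference of -0.55 and a standard error of 0.59 (limma, adjusted p = 0.672, 95% interval -2.14 to 1.05). Leaving out day 4 replicate 1 gave -1.15, and leaving out replicate 2 gave 0.06, so its direction rests on 1 library. Centring on the median, quantile normalization and correction for GC content each placed Mmp9 lower at day 6 without overlap, with log2 differences of -1.17, -1.16 and -1.04. The difference between Mmp9 and Mmp2 was not tested.

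The 3 inhibitors were all higher without overlap at day 6, with ranges that overlapped each other there. Timp2, which besides inhibiting takes part in activating the Mmp2 precursor, read 8.30 and 4.68 FPKM on day 4, then 19.6 and 15.9 FPKM on day 6 (NM_011594, minus strand, chromosome 11, 118301061 to 118355411). Its mean of 6.49 ± 2.55 FPKM on day 4 and of 17.7 ± 2.60 FPKM on day 6 (n = 2, SD) gave a ratio of 2.73 and a log2 difference of 1.36 with a standard error of 0.49 (limma, adjusted p = 0.316). Timp3, the inhibitor that binds to the matrix and also blocks some ADAM proteases, read 8.21 and 6.78 FPKM on day 4, then 21.8 and 12.7 FPKM on day 6 (NM_011595, plus strand, chromosome 10, 86300412 to 86349505). Its mean of 7.50 ± 1.01 FPKM on day 4 and of 17.2 ± 6.45 FPKM on day 6 gave a ratio of 2.30 and a log2 difference of 1.06 with a standard error of 0.49 (limma, adjusted p = 0.382). Of the 8 members higher without overlap, Timp3 had the smallest difference, and its days overlapped after centring on the median (log2 difference 0.43) and after correction for GC content (0.39). For Timp2 these scalings gave 0.73 and 0.78, and quantile normalization gave 0.79 for Timp2 and 0.52 for Timp3. Without day 4 replicate 1 the log2 difference was 1.71 for Timp2 and 1.18 for Timp3. Without day 4 replicate 2 it was 1.00 for Timp2 and 0.94 for Timp3.

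Timp1, a secreted inhibitor that is inducible in many cell types, had the most unequal day 4 libraries of the members. Its 2 transcript rows (NM_011593 and NM_001044384, plus strand, chromosome X, 20870166 to 20874737) summed to 5.08 FPKM in day 4 replicate 1, were listed at 0 in day 4 replicate 2, and summed to 16.7 and 13.2 FPKM at day 6. The highest values were thus those of day 6, and the 2 day 4 libraries differed by more than the day 6 libraries did. NM_011593 held 83.4% of the sum in day 4 replicate 1 and 80.3% and 71.8% at day 6. The rows are nearly equal in length, at 887 and 890 bases, and cover the same stretch, so the split between them rests on few fragments. The log2 difference was 2.69 with a standard error of 0.97 (limma, adjusted p = 0.318). Leaving out day 4 replicate 2, the library with the 0, gave 1.38. Leaving out replicate 1 sets day 6 against that 0 alone, and the size is then fixed by the pseudocount.

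Listed zeros of genes that had FPKM in the other libraries were most numerous in day 4 replicate 2. Below 0.05 FPKM in that library and at 2 FPKM or more in the other 3 were 434 of the 11736 genes tested. Timp1 and Plau, 2 of the 9 members, were among them. Such genes numbered 28 for day 4 replicate 1, 0 for day 6 replicate 1 and 1 for day 6 replicate 2. The zeros of Timp1 and Plau are therefore given as listed values, with no day 4 mean and no fold of means. Their log2 differences include that 0 and so depend on the pseudocount: with 0.1 in place of 1 FPKM they were 4.38 for Timp1 and 3.55 for Plau, in place of 2.69 and 1.88.

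All 3 Timp genes share their stretch of genome with another gene. Timp1 lies inside Syn1 and Timp3 inside Syn3, each on the opposite strand, and Cep295nl lies inside Timp2 on the same strand. In the GENCODE M21 annotation 0 exons of Timp1 and Timp2 and 1 exon of Timp3 meet exons of the gene that shares their stretch. The 2 Syn1 rows held 11.2 and 13.3 FPKM at day 4, where NM_013680 had nearly all of it in replicate 1 and NM_001110780 in replicate 2. At day 6 NM_013680 held 2.83 and 2.18 FPKM, so Syn1 and Timp1 were ordered oppositely. Syn3 stayed at or below 0.363 FPKM and Cep295nl at or below 0.0553 FPKM in every library. How reads were assigned by strand is also not given in the sources used here. Reads on the exon of Timp3 that meets Syn3 therefore cannot be told apart with certainty. For Timp1 and Timp2 the annotated exons lie apart from those of the other gene, and reads outside annotated exons were not examined.

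Plat, which encodes tissue plasminogen activator, had the largest difference of the members. It was given as 0.165 and 0.167 FPKM at day 4, with deposited bounds that include 0, and as 11.7 and 6.11 FPKM at day 6 (NM_008872, plus strand, chromosome 8, 22757744 to 22782848). Plat ranked above 2.02% and 9.97% of the genes tested at day 4 and above 54.4% and 37.9% of them at day 6. The lowest bound at day 6, 4.90 FPKM, is 12.6 times the highest bound at day 4, 0.390 FPKM, so the gap exceeds the counting error that the bounds cover. The log2 difference was 3.02 with a standard error of 0.47 (limma, adjusted p = 0.265), larger than that of 98.5% of the genes tested. The choice of day 4 library moved it little, at 3.02 without replicate 1 and 3.03 without replicate 2. A pseudocount of 0.1 in place of 1 FPKM gave 5.01 (adjusted p = 0.362); the day 4 values lie far below 1 FPKM.

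Plau, which encodes urokinase, was given as 2.33 FPKM in day 4 replicate 1, listed at 0 in day 4 replicate 2, and given as 8.66 and 3.69 FPKM at day 6 (NM_008873, plus strand, chromosome 14, 20836662 to 20843388). Of the members it had the least equal day 6 libraries, at a ratio of 2.35, and its lower day 6 value was 1.58 times its higher day 4 value. The deposited bounds of those 2 libraries overlap, from 2.75 FPKM upward in day 6 replicate 2 and up to 3.17 FPKM in day 4 replicate 1. The log2 difference was 1.88 with a standard error of 0.78 (limma, adjusted p = 0.352). Leaving out day 4 replicate 2, the library with the 0, gave 1.02. After centring on the median and correction for GC content the difference was 1.25 and 1.198. As for Timp1, leaving out replicate 1 sets day 6 against that 0 alone. Plau exceeded Plat in day 4 replicate 1, and Plat exceeded Plau in the other 3 libraries. On the scale of log2 of Plau over Plat, with 0.1 FPKM added to each, the libraries stood at 3.20 and -1.42 at day 4 and at -0.42 and -0.71 at day 6. The day 4 values enclose those of day 6 (difference -1.46, exact two-sided permutation p = 1). In day 4 replicate 2 Plau is the listed 0 and the bounds of Plat include 0, so that ratio depends on the 0.1 FPKM added. After correction for GC content the difference was -1.97 (exact two-sided permutation p = 0.333, the lowest possible with 2 libraries a day).

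FPKM is per length, so levels are set side by side here, without correction for GC content. At day 4 the order by mean was Mmp14, Mmp2, Timp3, Timp2, Mmp9, Mmp11 and Plat, with Timp1 and Plau listed at 0 in 1 library; Mmp14, Mmp11 and Plat overlapped neither neighbour, and the ranges of Mmp2, Timp3, Timp2 and Mmp9 overlapped. At day 6 the order by mean was Mmp14, Mmp2, Timp2, Timp3, Timp1, Mmp11, Plat, Plau and Mmp9. The ranges of Mmp14 and Mmp2 overlapped no other member, whereas the 3 inhibitors overlapped each other, Mmp11 overlapped Plat, Plat overlapped Plau, and Plau overlapped Mmp9. The 4 metalloproteases summed to 34.3 and 97.5 FPKM on day 4, then 206 and 175 FPKM on day 6. Mmp14 made up 61.0% and 80.6% of that sum at day 4 and 80.3% and 70.8% at day 6, and the share of Mmp9 was 8.70% and 8.42% at day 4 and 1.91% and 1.42% at day 6. The 3 inhibitors summed to 21.6 and 11.5 FPKM on day 4, then 58.0 and 41.8 FPKM on day 6.

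The sums of metalloproteases and of inhibitors were both higher at day 6 without overlap, while their ratio had no such order. Inhibitors over metalloproteases came to 0.630 and 0.118 at day 4 and 0.282 and 0.240 at day 6, so that the day 4 libraries enclosed those of day 6. The log2 ratio differed by -0.07 between the days (exact two-sided permutation p = 1, where no p below 0.333 is possible with 2 libraries a day). It differed by 1.14 without day 4 replicate 1 and by -1.28 without day 4 replicate 2. Without Mmp14 in the sum the ratio was 1.61 and 0.605 at day 4 and 1.43 and 0.822 at day 6 (log2 difference 0.13, exact two-sided permutation p = 1). These were 2 of 3 ratios tested, with Plau over Plat, and each had an adjusted p of 1 (exact permutation). FPKM of Mmp14 over Timp2, the pair that acts on the Mmp2 precursor, was 2.52 and 16.8 at day 4 and 8.44 and 7.77 at day 6.

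**Figure D3:**
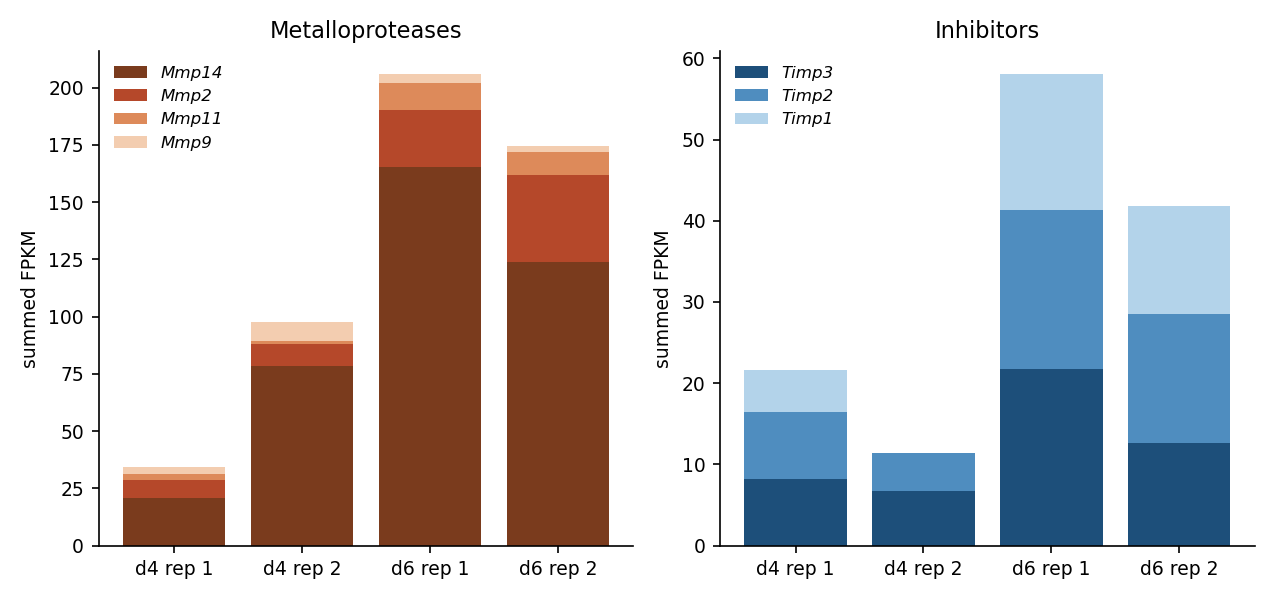
Summed FPKM per library of the metalloproteases (left) and of the Timp inhibitors (right), stacked by gene, for 2 libraries at day 4 and 2 at day 6. The vertical axes differ: metalloproteases reach 206 FPKM, of which most is Mmp14, and inhibitors 58.0 FPKM, with no Timp1 listed in day 4 replicate 2.

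The gap between the day 4 libraries varied with GC content. As a median of the 11736 genes, replicate 2 minus replicate 1 came to -0.26 on the log2(FPKM + 1) scale. Among genes within 2 percentage points of GC of the member, the median gap was 0.39 for Mmp14 (55.3% GC), 0.38 for Mmp9 (55.2%), 0.39 for Mmp2 (55.3%) and 0.65 for Mmp11 (56.6%). The gaps of these members themselves were 1.86, 1.21, 0.26 and -0.72. For Timp1, Timp2 and Timp3 (52.8, 53.7 and 46.8% GC) the medians of such genes were -0.05, 0.10 and -1.11, and the members' own gaps were -2.60, -0.71 and -0.24. Plat (50.02% GC) had a gap of 0.00 where such genes had -0.59, and Plau (48.3%) had -1.73 where such genes had -0.90. Mmp14, Timp3, Mmp9 and Plat lay above the median of genes of like GC, and Timp1, Mmp11, Timp2, Plau and Mmp2 below it. After correction for GC content, 7 of the 9 members were higher without overlap, beside 28.1% of all genes, with Timp3 overlapping and Mmp9 lower, beside 27.3%. The part of GC content in the members' values was not tested beyond this.

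**Figure D4:**
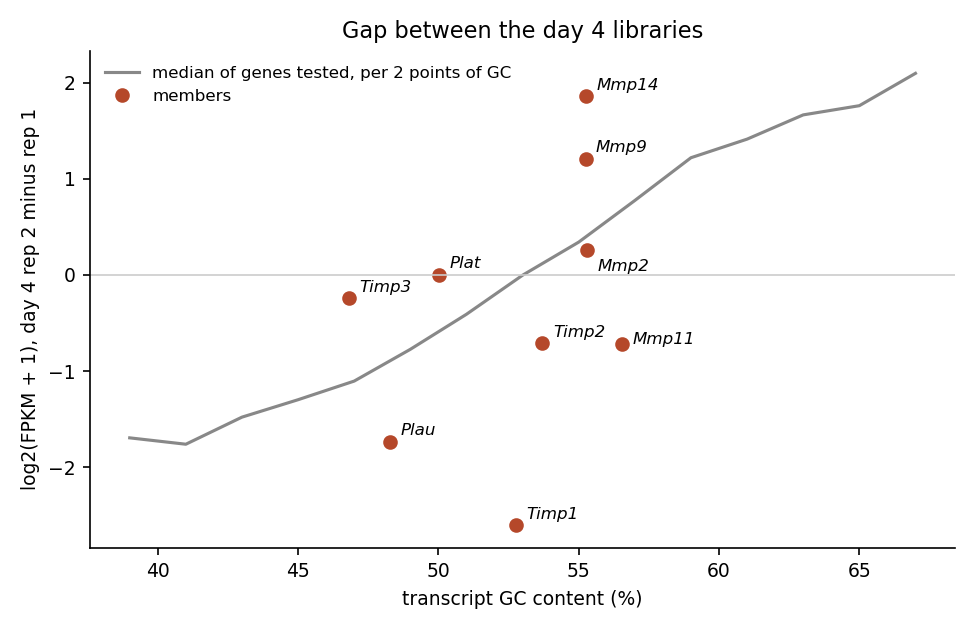
Difference of log2(FPKM + 1) between day 4 replicate 2 and day 4 replicate 1 against transcript GC content, for the 9 members (points) and as the median of all genes tested per 2 percentage points of GC (line). The line climbs with GC; Mmp14 lies at 1.86 and Timp1 at -2.60, both away from it.

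Other genes of matrix turnover were taken from 7 lists with 100 genes, chosen with results of these data known. The files held 99 of them and 57 were tested. None passed (limma, 0 of 57 at an adjusted p under 0.05). At an unadjusted limma p under 0.05 there were 27, beside 15.4% of all genes. Higher without overlap were 37, with 6 lower and 14 neither, and the median log2 difference was 1.47. Each count without overlap in these lists and in the marker lists stands against 41.5% of all genes higher and 11.5% lower. After centring on the median these shares were 20.3% and 26.4%. Among the other metalloproteases 4 of 17 were tested, 2 higher and 2 lower without overlap, and 8 were listed at 0 in every library. Mmp23 read 0.612 and 0.778 FPKM on day 4, then 4.96 and 5.41 FPKM on day 6. Mmp25, which is anchored in the membrane by a lipid, read 5.78 and 22.5 FPKM on day 4, then 3.38 and 2.65 FPKM on day 6. Together with Mmp9, these values show that the metalloproteases did not all share 1 order.

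Of 8 tested regulators of metalloproteases, 4 were higher and 2 lower without overlap, near the 41.5% of all genes that were higher. Reck, a membrane-anchored inhibitor, read 1.78 and 1.62 FPKM on day 4, then 5.96 and 8.31 FPKM on day 6. Pcolce2, an enhancer of procollagen processing, read 8.46 and 5.22 FPKM on day 4, then 2.47 and 1.01 FPKM on day 6. The fourth inhibitor gene, Timp4, named here after its values were seen, was listed at 0 in every library.

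Of 8 tested genes of the plasminogen system, 5 were higher and none lower without overlap. Serpine2, a serpin that inhibits plasminogen activators and thrombin, read 7.42 and 2.09 FPKM on day 4, then 91.4 and 36.7 FPKM on day 6, a log2 difference of 3.53 with a standard error of 0.78 (limma, adjusted p = 0.265). It thus had its high values in the same libraries as Plat and Plau. Plaur and Plg were named after their values were seen. Plaur, the cell surface receptor of urokinase, read 53.8 and 319 FPKM on day 4, then 88.0 and 57.9 FPKM on day 6. Its days overlapped. Plg, which encodes plasminogen, was listed at 0 at day 4 and given as 0.155 and 0.310 FPKM at day 6, where both of its activators had higher FPKM in each library.

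In the ADAM family 4 of 7 tested genes were higher without overlap, with Adam19 at 5.24 and 3.59 FPKM on day 4, then 16.5 and 20.7 FPKM on day 6. In the ADAMTS family, secreted proteases of proteoglycans and procollagens, 4 of 7 were higher and 1 lower. Adamts9 read 1.16 and 0.774 FPKM on day 4, then 9.30 and 15.05 FPKM on day 6, and Adamts15 as 2.61 and 2.81 FPKM and as 1.74 and 2.25 FPKM. Of 8 tested genes for tolloid metalloproteases, membrane serine proteases and their inhibitors, 6 were higher without overlap, among them Spint1, an inhibitor of membrane serine proteases, at 17.0 and 19.9 FPKM on day 4, then 136 and 98.7 FPKM on day 6.

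The matrix proteins that these enzymes cut had 12 of 15 tested genes higher and 1 lower without overlap, and a median log2 difference of 2.28. Col1a2, a chain of type I collagen, read 0.941 and 0.198 FPKM on day 4, then 23.7 and 60.6 FPKM on day 6. Eln (elastin) read 2.00 and 1.97 FPKM on day 4, then 1.19 and 0.857 FPKM on day 6. The list medians were 0.50 for other metalloproteases, 1.06 for regulators, 1.34 for the plasminogen system, 0.71 for ADAM, 0.74 for ADAMTS and 1.47 for the list of tolloid and serine proteases, beside 1.79 for the members and 0.51 for all genes.

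**Figure D5:**
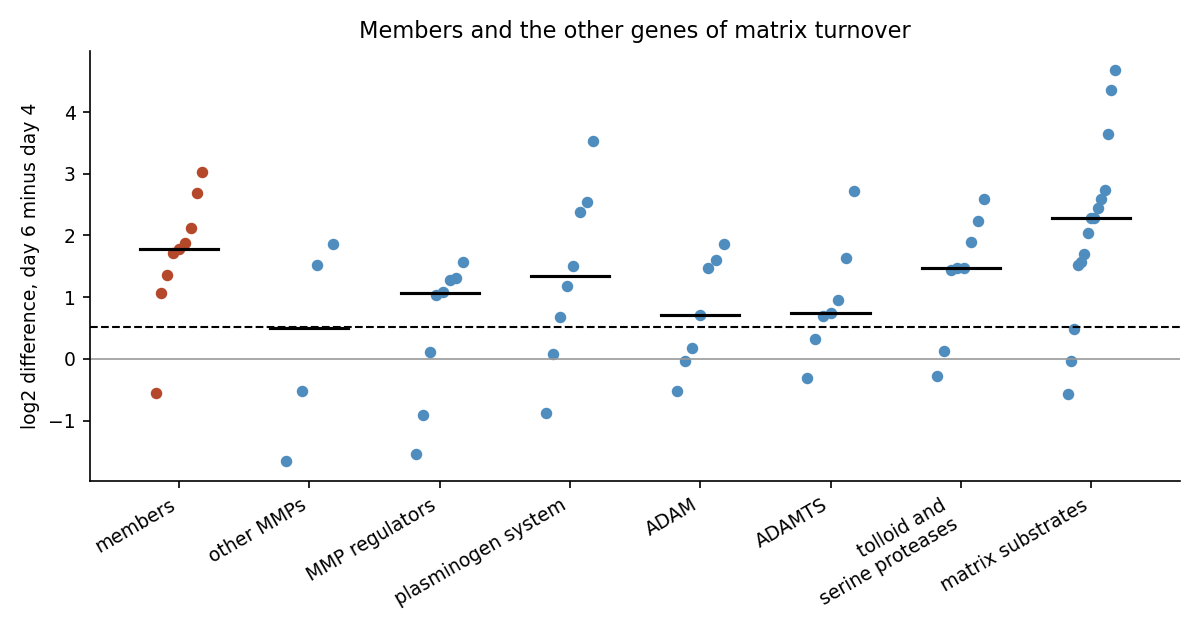
Difference of log2(FPKM + 1), day 6 minus day 4, of each tested gene (points) for the 9 members and for 7 lists of related genes, with the median of each list (bar) and of all genes (dashed line, 0.51). The list medians run from 0.50 for other metalloproteases to 2.28 for matrix substrates.

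Summed FPKM of several marker lists was larger in both day 6 libraries, while 0 genes of any list passed (limma, adjusted p under 0.05). At an unadjusted limma p under 0.05 there were 7 fibroblast, 5 endoderm, 3 endothelial, 4 trophoblast and 3 stem cell markers. The share of all genes at that p was 15.4%, and 41.5% of all genes were higher without overlap. The fibroblast list (12 genes, 9 tested, 7 higher without overlap) summed to 14.8 and 25.7 FPKM on day 4, then 180 and 318 FPKM on day 6, with Dcn, Lum and Postn listed at 0 in both day 4 libraries. The list of parietal and visceral endoderm (12 genes, 9 tested, 8 higher) summed to 376 and 131 FPKM on day 4, then 660 and 581 FPKM on day 6, with Afp at 0 in every library. Most of each of these sums was Sparc, at 358 and 112 FPKM on day 4, then 593 and 479 FPKM on day 6. Endothelial markers (10 genes, 9 tested, 7 higher) summed to 9.18 and 7.97 FPKM and to 25.5 and 59.7 FPKM. Trophoblast markers (10 genes, 7 tested, 5 higher) summed to 138 and 186 FPKM and to 454 and 617 FPKM. Prl3d1 and Tpbpa were at 0 throughout, while Plac1 was listed at 0 on day 4 and read 30.2 and 45.7 FPKM on day 6. The largest parts of the day 6 trophoblast sums were Hand1, at 181 and 329 FPKM, and Krt7, at 146 and 129 FPKM. Markers of undifferentiated stem cells (10 genes, all tested, 5 lower and 3 higher without overlap) summed to 938 and 985 FPKM on day 4, then 294 and 302 FPKM on day 6. The part of these cell types in the members' values was not tested. Macrophage and blood markers, known for Mmp9 and Plau in adult tissue, summed to between 0.861 and 2.36 FPKM per library over 9 genes. Ptprc, Adgre1, Lyz2, Tyrobp and Fcer1g were listed at 0 in each library. Csf1r read 0 and 0.160 FPKM on day 4, then 1.79 and 1.27 FPKM on day 6. Spi1 was highest in day 4 replicate 1, at 1.66 FPKM.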

How the data were processed

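RNA was measured in 4 libraries, 2 per day of LIF withdrawal by title (day 4, day 6). Per the labels' protocols, poly(A) RNA was made into stranded TruSeq libraries. The submitters' processing notes name CASAVA, TopHat2 2.0.11 and mm10; no quantifier was given in the sources used here. The authors deposited FPKM per transcript with lower and upper bounds, and an unscaled coverage signal used only for depth (median coverage over FPKM 0.698 and 0.929 at day 4, 1.82 and 1.59 at day 6). Widths of the bounds, read as 2 Poisson standard deviations on each side, give about 3.73 M and 3.62 M fragments at day 4 and 6.51 M and 5.77 M at day 6, so low genes are less precise at day 4. Bounds cover counting error only. No member row has a low-data or failed status.

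Rows were joined by transcript ID and named from RefSeq (GRCm38.p6) and GENCODE M21, which named 94.2% of rows. FPKM was summed per symbol, and those with a mean of 1 FPKM or more were tested on log2(FPKM + 1), a scale that understates changes of low genes, with limma 3.58.1 in R 4.3.3 (trend, two-sided, Benjamini-Hochberg over all genes, threshold 0.05, no replicate block). Members and lists were chosen with earlier results of these data known. Besides the members, the named genes are, from each list, the gene with the largest rise and the one with the largest fall without overlap, and for each member the gene nearest in pattern. Outside this rule are Timp4, Plaur, Plg, Sparc, Ttr, Plac1, Hand1, Krt7, Csf1r, Spi1, the genes that share a Timp locus, and markers listed at 0. They were named after their values were seen. Alternatives were the pseudocount, filters, scalings, GC correction (loess), the highest row per gene, the replicate block and leaving out each library.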

Additional observations from a re-analysis of the deposited data

How the results depend on the processing

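No paired design is given, since the labels share replicate numbers but no culture between the days. Same-numbered libraries did not deviate together (correlation across genes -0.09). With the replicate number as a block, 60 genes passed higher and 14 lower, and Plat, at 3.02, passed (adjusted p = 0.0479); the other 8 members did not. With 1 library left out, genes passing numbered 0 to 5844 higher and 0 to 1990 lower, and genes without overlap 5294 to 7623 higher and 1529 to 3752 lower, against 4876 and 1352 with all 4; fewer libraries overlap less often by construction. Log2 differences ran from 1.41 to 2.01 for Mmp2, -1.15 to 0.06 for Mmp9, 1.77 to 2.49 for Mmp11, 0.86 to 2.72 for Mmp14, 1.38 to 3.99 for Timp1, 1.00 to 1.71 for Timp2, 0.69 to 1.43 for Timp3, 2.61 to 3.44 for Plat and 1.02 to 2.75 for Plau. The highest values of Timp1 and Plau are against a listed 0 and depend on the pseudocount. Only Mmp9 changed sign, at 0.058 without day 4 replicate 2. The log2 ratio of inhibitors to metalloproteases ran from -1.28 to 1.14 (1.14 without day 4 replicate 1 and 0.05 without day 6 replicate 2, against -0.07) and that of Plau to Plat from -3.77 to 0.85 (0.85 without day 4 replicate 1, against -1.46). Genes without overlap numbered 2384 higher and 3100 lower after centring on the median, 2714 and 2934 after quantile normalization, and 3192 and 3105 after GC correction, and 3102 were higher with a mean of at least 5 FPKM, where fewer genes were tested and Mmp9, Plat and Plau were left out. The cause of these shifts was not tested. Under the settings that kept all libraries every member tested kept its direction. At day 4 the bounds of Plat include 0 in both libraries, and Timp1 and Plau were listed at 0 in replicate 2 only. By the widths of the bounds, day 4 replicates 1 and 2 held about 3.73 M and 3.62 M fragments. By other measures they were less alike, with a median coverage over FPKM of 0.698 and 0.929. Genes at 1 FPKM or more numbered 11223 and 9461 in them. The 10 highest rows held 11.5% and 19.8% of their FPKM. The part of depth in these values was not tested.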

Other observations

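For each member, the tested gene with the most similar profile was found by the root mean square difference of log2(FPKM + 1), centred per gene, over the 4 libraries. It was Ulk2 for Mmp2 (0.08 log2 units), Rps19bp1 for Mmp9 (0.01), Fignl2 for Mmp11 (0.02), Eps8l2 for Mmp14 (0.06), Uqcr10 for Timp1 (0.03), Fbxw17 for Timp2 (0.03), Cldn6 for Timp3 (0.05), a transcript without a gene name for Plat (0.18) and Mirg for Plau (0.16). With 4 libraries among 11736 genes such likeness is a description only. Cldn6, a tight junction gene, read 139.97 and 111 FPKM on day 4, then 362 and 205 FPKM on day 6. Eps8l2 read 8.61 and 31.2 FPKM on day 4, then 64.9 and 49.5 FPKM on day 6, in the same order of libraries as Mmp14.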
